A study of Mus musculus with 101 samples.

Results

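The 18 lines whose names begin with B2 and the 19 whose names begin with B3B were compared at captured regions of the genome, as 37 of the 85 columns of mouse embryonic stem cell lines analysed, each called a line here. Lines were taken by the prefix of the name of their column in the authors' table of region averages. The prefixes were set against each other with their overall levels already known to be close. All lines of both prefixes were derived from Diversity Outbred stock, an outbred mouse population bred from inbred founder strains, and were cultured with serum, the cytokine LIF and 2i, a mixture of inhibitors of MEK and GSK3 that keeps embryonic stem cells naive. The sex, the founder makeup and the number of clones or embryos behind a line, and the meaning of the prefixes are not given in the sources used, so whatever else separates the lines of the prefixes cannot be told apart from the prefix. Whether B2 lines 2 and 2A are related is not stated. Nothing says that the columns came from separate cultures, so p-values measure only the spread between these columns. DNA methylation was read by enzymatic methyl sequencing (EM-seq), in which enzymes convert unmethylated cytosines, after capture with a Twist panel, and the study set out to measure how variable methylation is among such lines. Of the 868 target regions, 765 had a value in at least 80% of the lines of each prefix and are described here. The table holds methylated fractions without read counts, given here as percent, and sequencing depth is therefore unknown. Differences are B2 minus B3B.

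Methylated cytosines in mammals lie mostly in CpG pairs and are copied at each division by Dnmt1, while Dnmt3a and Dnmt3b with their cofactor Dnmt3l write new marks and Tet enzymes oxidise them. Naive embryonic stem cells in 2i are known for low methylation over most of the genome. Imprinted loci carry methylation on the allele of a single parent, set in the egg or the sperm, and an imprint once erased is not put back in ordinary culture. Promoters of germline genes and of genes of the 2-cell embryo are normally silenced by methylation in somatic cells. The authors sorted the target regions into 11 categories, whose names are used as written.

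At genes of naive pluripotency both prefixes had methylation near 0. The region nearest Nanog, a core pluripotency factor, averaged 0.514% ± 0.798 in B2 lines and 0.203% ± 0.376 in B3B lines (SD, n = 18 and 19). Zfp42, a marker of naive cells, had 0.719% ± 0.877 in B2 lines (SD, n = 18) and 1.37% ± 2.53 in B3B lines (SD, n = 16). Tbx3, a factor of the naive network, had 0.200% ± 0.459 in B2 lines (SD, n = 17) and 0.114% ± 0.181 in B3B lines (SD, n = 18). Methylation at a gene is no measure of its expression, so these values describe the lines only. Pax6, Sox17, Gata4 and Foxa2, factors of neural tissue and endoderm, had 6 regions in all, which averaged between 4.24% and 60.2% in B2 lines and between 3.14% and 50.2% in B3B lines.

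The 4 promoter windows below were chosen to show, at single CpGs, regions where the means of the prefixes stood apart in either direction. Each window runs from 250 bases before to 50 after the gene's start in RefSeq, on build GRCm38.p6, which shares the coordinates of the authors' build mm10. They are printed 5′ to 3′ on the strand of the gene, with the CpGs that the authors measured in capitals. Of the 765 regions, 222 overlapped such a window. Ldhal6b, a lactate dehydrogenase gene of the testis, lies on the minus strand (chr17:5418718-5419017). Zdbf2, an imprinted gene read from the paternal allele, lies on the plus strand (chr1:63200108-63200407). Nap1l5, an imprinted gene within an intron of Herc3, lies on the minus strand (chr6:58907077-58907376). Lhx9, a LIM homeobox gene of gonad development, lies on the minus strand (chr1:138842395-138842694).
Ldhal6b: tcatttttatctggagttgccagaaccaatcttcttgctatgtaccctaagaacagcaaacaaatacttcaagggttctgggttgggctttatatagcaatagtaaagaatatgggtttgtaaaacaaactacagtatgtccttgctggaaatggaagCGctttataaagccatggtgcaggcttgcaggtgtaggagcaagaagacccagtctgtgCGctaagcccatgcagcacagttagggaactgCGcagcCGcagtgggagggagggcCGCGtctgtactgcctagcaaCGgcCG
Zdbf2: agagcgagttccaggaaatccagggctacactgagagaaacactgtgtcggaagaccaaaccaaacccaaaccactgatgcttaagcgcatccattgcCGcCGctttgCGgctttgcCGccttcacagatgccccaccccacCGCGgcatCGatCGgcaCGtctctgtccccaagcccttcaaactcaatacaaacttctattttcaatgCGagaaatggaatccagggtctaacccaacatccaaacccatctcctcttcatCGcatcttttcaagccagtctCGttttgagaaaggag
Nap1l5: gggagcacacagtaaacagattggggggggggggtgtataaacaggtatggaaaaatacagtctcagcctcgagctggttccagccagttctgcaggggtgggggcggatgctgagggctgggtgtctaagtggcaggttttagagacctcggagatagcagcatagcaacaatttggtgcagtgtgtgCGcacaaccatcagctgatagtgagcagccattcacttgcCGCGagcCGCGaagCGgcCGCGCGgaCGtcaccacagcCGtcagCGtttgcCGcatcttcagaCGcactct
Lhx9: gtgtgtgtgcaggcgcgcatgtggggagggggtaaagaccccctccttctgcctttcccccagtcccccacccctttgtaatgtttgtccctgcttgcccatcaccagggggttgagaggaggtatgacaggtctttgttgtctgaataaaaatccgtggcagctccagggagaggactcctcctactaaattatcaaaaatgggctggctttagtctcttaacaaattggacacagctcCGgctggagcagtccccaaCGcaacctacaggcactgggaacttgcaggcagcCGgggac

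At Ldhal6b all 8 CpGs of the window had a higher mean in B2 lines, at 2.42% to 5.24% in B2 lines and 0.516% to 1.02% in B3B lines. The gap was widest 92 bases before the start, with 5.24% ± 9.48 in B2 lines and 0.640% ± 1.12 in B3B lines (SD, n = 18 and 19). At Zdbf2 all 12 measured CpGs of 15 in the window had a higher mean in B2 lines, at 13.2% to 17.9% in B2 lines and 6.26% to 8.93% in B3B lines. At Nap1l5 the same held at all 14 measured CpGs of 17, with 16.5% to 22.3% in B2 lines and 8.14% to 11.3% in B3B lines. The 3 measured CpGs of the Lhx9 window went the other way, with 8.30% to 12.2% in B2 lines and 24.3% to 27.9% in B3B lines. CpGs of a window are read from the same molecules, so they are not separate measurements of the lines.

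Over the 765 regions the B2 lines had a mean methylation of 20.7% ± 8.41 (SD, n = 18) and the B3B lines 15.8% ± 10.5 (SD, n = 19). The B2 lines ran from 5.63% in line 31 to 38.4% in line 9, with a median of 19.4%. The B3B lines ran from 4.25% in line 27N to 42.2% in line 8, with a median of 14.7%. The prefixes overlapped over nearly the whole range, and the highest lines of all were B3B lines 8 and 44N, the second at 40.2%, well above the next B3B line at 24.1%. The difference of the means was 4.89 points with a standard error of 3.12 and a 95% interval of -1.44 to 11.2, and a two-sided permutation test gave p = 0.129. In the band from 20 to 30% lay 7 B2 lines and 1 B3B line. Below 10% lay 1 B2 line and 5 B3B lines, and 2 lines of each prefix stood above 30%. Between 10 and 20% there were 8 B2 lines and 11 B3B lines.

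**Figure D1:**
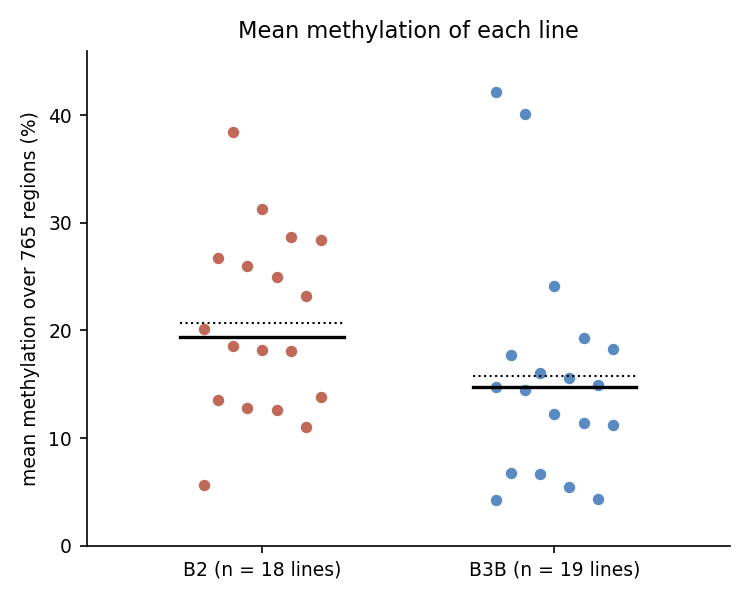
Mean methylation over the 765 regions in percent (vertical axis) of each of the 18 B2 lines (left) and 19 B3B lines (right). Each point is a line, the solid bar is the median and the dotted bar the mean; B3B lines 8 and 44N, at 42.2% and 40.2%, stand above all others.

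Leaving out each line in turn gave differences of 3.84 to 6.35 points, with permutation p of 0.0308 to 0.220, and 2 of the 37 fits passed 0.05. Those were the fits without B3B line 8 (6.35 points, permutation p = 0.0308) and without B3B line 44N (6.24 points, permutation p = 0.0370), the highest B3B lines. Without the highest B2 line, line 9, the difference was 3.84 points (permutation p = 0.220). Without both lines the B3B mean was 12.8% ± 5.77 (SD, n = 17) and the difference 7.87 points. Lines picked for their level are picked by the quantity compared, so the values without them, singly or as a pair, describe the other lines and are no test of the prefixes. The mean absolute deviation of a line from the median of its own prefix was 6.87 points in B2 lines and 6.92 points in B3B lines, and a permutation test of this spread gave p = 0.980. At the level of single regions the SD between lines was larger in B3B at 587 of the 765 regions, with a median SD of 9.57 points in B2 lines and 11.3 points in B3B lines. Regions of a line share its level, so this count is not separate evidence of spread. Without B3B lines 8 and 44N the SD of the line means was 5.77 points in B3B lines, against 8.41 points in B2 lines. One of the lines 8 and 44N was the highest B3B line at 693 regions, and line 9 was the highest B2 line at 517. Over the same regions the 28 B1 lines averaged 24.3% ± 9.20 and the 20 B3A lines 12.8% ± 7.73 (SD), so B2 and B3B took the middle places in the order of the 4 prefixes.

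Some features of the columns and their labels differed between the prefixes. A final N in the column name, whose meaning is not given, was carried by 0 B2 and 9 B3B columns, and these 9 averaged 16.7% ± 10.96 against 14.9% ± 10.5 in the 10 B3B columns without it (SD). Against those 10 alone the difference of B2 from B3B was 5.74 points (permutation p = 0.128). Lines with 2 titles in the labels, with and without a final WA whose meaning is not given, numbered 4 in B2 and 3 in B3B. Which of the titles stands behind the column is not known. Among these lines were the highest of each prefix, B2 line 9 and B3B line 8. The lines with 2 titles averaged 28.7% ± 7.91 in B2 and 22.7% ± 16.9 in B3B (SD), above the lines with 1 title at 18.4% ± 7.25 in B2 (SD, n = 14) and 14.5% ± 9.05 in B3B (SD, n = 16). In B3B, line 8 had 42.2%, while the other lines with 2 titles, 26N and 31N, had 14.7% and 11.2%. The B3B medians were 14.74% with 2 titles and 14.71% with 1. With lines of 1 title only the difference was 3.90 points (permutation p = 0.208). Up to 21 of the 765 regions were missing in a B2 line, and up to 81 in a B3B line. The part of these features in the values below was not tested except by the same exclusions.

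Most regions had a higher mean in B2 lines, and no single region passed the test. The mean was higher in B2 lines at 711 of the 765 regions, or 92.9%, with a median difference of 4.10 points. The range was -10.4 to 17.4 points. On the log2 odds scale, the log2 of the methylated over the unmethylated fraction with 0.01 added to each, limma's moderated test called 0 of 765 regions, a share of 0%, at an adjusted p under 0.05 after Benjamini-Hochberg adjustment. The smallest adjusted p was 0.0635. At an unadjusted p under 0.05 there were 201 regions, 26.3% of those tested, and in all of them B2 was the higher. A Wilcoxon rank-sum test also called 0 regions after adjustment, with 296 at an unadjusted p under 0.05 (38.7%). The ranges of the lines of the prefixes overlapped at each of the 765 regions. Regions of a line share its overall level, so these counts are not separate pieces of evidence.

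The count of calls turned on single B3B lines. Without B3B line 8 limma called 175 regions (22.9%), without B3B line 44N it called 14 (1.83%), and in all of these B2 was the higher. Without both lines, again a pair picked by level, 515 regions (67.3%) were called, each with B2 higher. Leaving out any other single line gave between 0 and 3 calls. After centring, described further on, the same pair left out gave 426 calls (55.7%), 153 higher in B2 lines (20%) and 273 lower (35.7%).

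**Figure D2:**
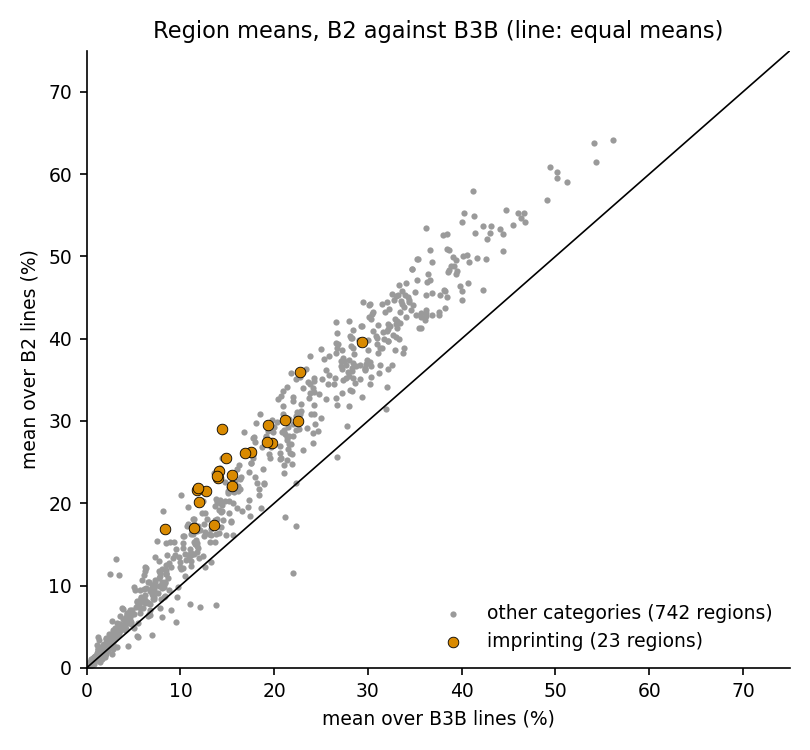
Mean of each of the 765 regions over the B2 lines (vertical axis, percent) against its mean over the B3B lines (horizontal axis, percent), with the 23 imprinting regions in orange and the other 742 in grey. Points above the diagonal are higher in B2 lines, which holds for 711 regions and for 23 of the 23 imprinting regions.

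The strongest single region was at Gm12359, a predicted gene in the category B6J vs 129 (chromosome 11, 98809119 to 98809532). Its B2 lines ran from 0.944% through a median of 11.4% to 40.8%, and its B3B lines from 0% through a median of 1.08% to 11.3%. The ranges overlapped, yet 9 of 18 B2 lines stood above the highest B3B line, and no B3B line reached the B2 median. The means were 11.3% ± 9.96 in B2 lines and 2.48% ± 3.49 in B3B lines (SD, n = 18 and 19). The log2 odds differed by 1.97 with a standard error of 0.45 (limma, adjusted p = 0.0635). The 2 B3B lines of highest overall level were low there, at 2.09% in line 8 and 1.08% in line 44N. All 3 CpGs measured in the region had a higher mean in B2 lines, by 4.42 to 15.8 points. With the mean log2 odds of each line as a covariate the difference was 2.02 and the adjusted p 0.0197, and with lines of 1 title only it was the single region called (0.132%, adjusted p = 0.00566). Region values recomputed from CpGs also gave that region alone (0.167%, adjusted p = 0.0379). With all 4 prefixes in 1 fit Gm12359 and Magi1 were called (0.261%), and with an offset of 0.001 in the odds these and Ldhal6b were (0.392%), higher in B2 lines each time. Gm12359 was not called with an offset of 0.05 (adjusted p = 0.133), on the fraction scale (adjusted p = 0.371) or with columns without a final N (adjusted p = 0.219). Nor was it called with the line's level subtracted, where the log2 odds differed by 1.40 (limma, adjusted p = 0.214) and the centred fractions by 3.97 points (limma, adjusted p = 0.440).

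The other 9 regions with the smallest p all had the higher mean in B2 lines, at adjusted p of 0.0882 to 0.182. Magi1, a scaffold protein gene of cell junctions, had 3.36% ± 2.53 in B2 lines and 1.26% ± 1.68 in B3B lines (SD, n = 18 and 19). Ldhal6b, whose promoter is printed above, had 3.72% ± 3.31 in B2 lines and 1.20% ± 1.33 in B3B lines. Every B2 line stood above the B3B median of 0.815%, the lowest by little, at 0.833%. All 21 CpGs of that region had a higher mean in B2 lines. 1700003E16Rik averaged 7.10% in B2 lines and 3.85% in B3B lines, and here too all 18 B2 lines stood above the B3B median of 2.12%. The same held at Asap3, outside the regions named here, and the share of all regions where it held was not counted. Wdr20rt, a retroposed gene in the germline_Dahlet category, had a median of 12.5% in B2 lines and 2.83% in B3B lines. Its B3B values reached 41.2% and 40.9% in lines 8 and 44N. Bin2, a membrane-bending protein gene of blood cells, averaged 9.77% in B2 lines and 5.08% in B3B lines. Gdpgp1, a nucleotide-sugar phosphorylase gene, B230208B08Rik and Osbpl7, an oxysterol-binding protein gene, averaged 5.67%, 11.3% and 11.8% in B2 lines and 2.70%, 6.10% and 6.24% in B3B lines. The remaining one, an imprinted region at Zdbf2, is described with the imprinting category. After the line's mean was subtracted from the fractions, 5 of these 10 regions had a difference below 0, among them Magi1 at -2.79 points and Ldhal6b at -2.37 points, while with the log2 odds centred 0 of the 10 did.

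The 23 regions of the imprinting category all had the higher mean in B2 lines, where 92.9% of all regions did, with a median difference of 8.89 points against 4.10 over all regions. None was called at the adjusted threshold, and 20 of 23 had an unadjusted p under 0.05, where 26.3% of all regions did. The category was chosen with earlier results of these data known, so its count is given as a description with no test of the list. Its lowest difference was 3.70 points, at a region on chromosome 9 with no gene within 5 kb (89870292 to 89870657). A second region there (89879351 to 89880252) averaged 26.2% in B2 lines and 17.6% in B3B lines. Of the 937 CpGs measured in 20 of these regions, 935 had a higher mean in B2 lines and 2 a lower one, while 6316 of the 7782 CpGs in all kept regions, or 81.2%, had a higher one. CpGs of a region are not separate measurements. Without B3B line 8, 17 of the 23 regions were called higher in B2 lines, beside 22.9% of all regions, and without B3B line 44N 2 were, beside 1.83%. Without both, 22 of 23 were called, beside 67.3% of all regions, and after centring 8 of 23 were called higher in B2 lines, beside 20% of all.

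**Figure D3:**
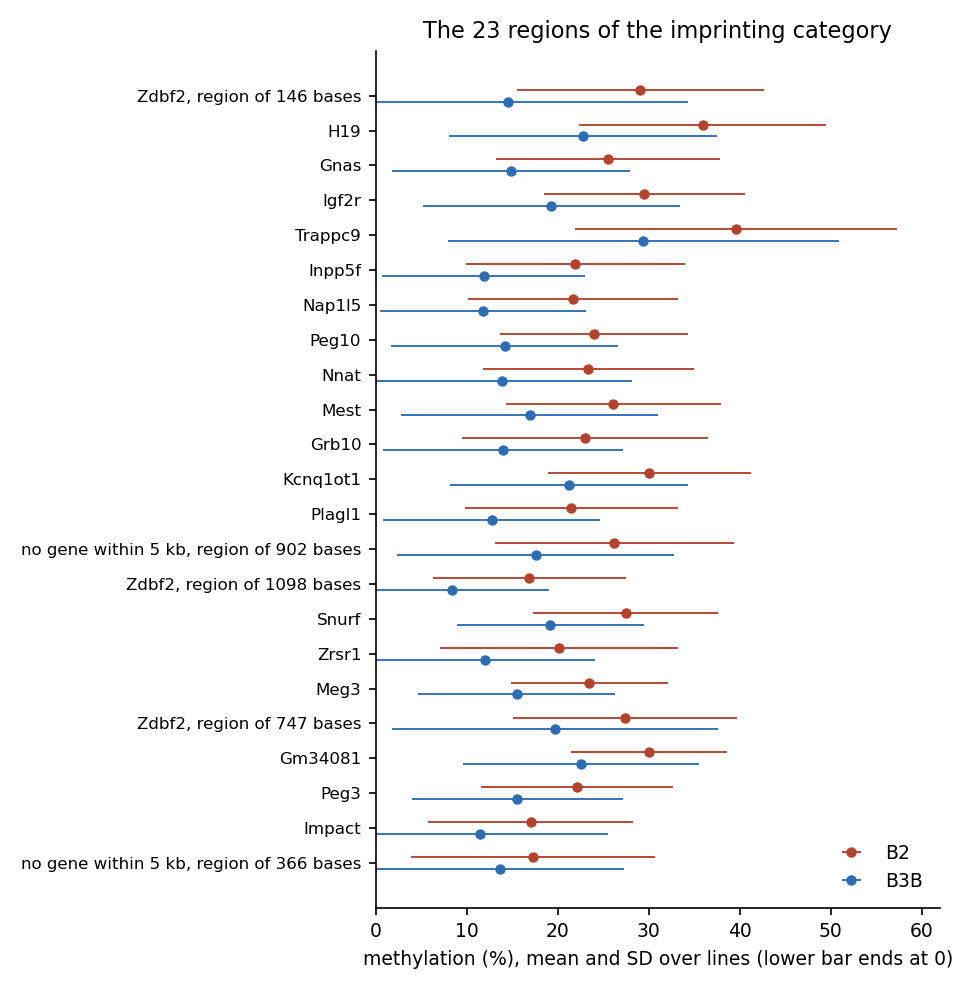
Methylation in percent (horizontal axis) of the 23 regions of the imprinting category, as the mean (point) and SD (bar, its lower end stopped at 0) over the B2 lines (upper of each pair) and the B3B lines (lower of each pair). Regions run from the largest difference, 14.6 points at Zdbf2, at the top to the smallest, 3.70 points, at the bottom, and the bars of all pairs overlap.

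Zdbf2 encodes a zinc finger protein and is imprinted together with Gpr1, and 3 regions lay at this locus. The region of largest difference (chromosome 1, 63263781 to 63263926) had 29.1% ± 13.5 in B2 lines and 14.5% ± 19.9 in B3B lines (SD, n = 17 each). None of its CpGs is among the deposited CpG values, so this region could not be examined at single CpGs. Its B2 lines ran from 12.5% through a median of 26.2% to 59.0%, and its B3B lines from 2.08% through a median of 7.30% to 69.6%. Below 10% lay 0 of 17 B2 lines and 12 of 17 B3B lines, while B3B lines 8 and 44N had the highest values of all, at 69.6% and 61.7%. The log2 odds differed by 1.71 with a standard error of 0.45 (limma, adjusted p = 0.0882). Without B3B line 44N, a line picked by its level, the adjusted p by limma was 0.0112, a description and no test of the prefixes. The region that spans the printed promoter (63199879 to 63200976) averaged 16.9% ± 10.6 in B2 lines and 8.33% ± 10.7 in B3B lines (SD, n = 18 and 19), and all 29 of its CpGs had a higher mean in B2 lines. The region between them (63260549 to 63261295) averaged 27.4% in B2 lines and 19.7% in B3B lines.

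Loci imprinted from the father and from the mother both had the higher mean in B2 lines. The H19 region (chromosome 7, 142580501 to 142582201), 2355 bases from the gene, is the control region of the H19 and Igf2 genes and is methylated on the paternal allele in normal cells. Its B2 lines ran from 9.41% through 36.02% to 61.1%, and its B3B lines from 1.47% through 22.2% to 54.98%. The means were 35.9% ± 13.6 in B2 lines and 22.8% ± 14.7 in B3B lines (SD, n = 18 and 19; limma, adjusted p = 0.182), and all 30 measured CpGs were higher in B2 lines. Among other loci with a paternal imprint, the region over Gm34081 upstream of Meg3 averaged 30.04% in B2 lines and 22.6% in B3B lines. That at the Meg3 promoter, start of a maternally expressed noncoding RNA, averaged 23.5% in B2 lines and 15.5% in B3B lines. The chromosome 9 regions of the category, given above and with no gene within 5 kb, were not assigned to a parent here.

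Among loci with a maternal imprint, the one at Gnas, which encodes a G protein subunit and its alternative transcripts, averaged 25.5% ± 12.3 in B2 lines and 14.9% ± 13.1 in B3B lines (SD, n = 18 and 19). The Igf2r region, where the antisense RNA Airn starts, averaged 29.5% in B2 lines and 19.3% in B3B lines. Nap1l5, with the printed promoter, averaged 21.7% in B2 lines and 11.8% in B3B lines, and all 37 CpGs of its region were higher in B2 lines. Peg10, a gene of retrotransposon origin needed in the placenta, averaged 23.98% in B2 lines and 14.2% in B3B lines. Kcnq1ot1, an antisense RNA that silences its neighbours, averaged 30.1% in B2 lines and 21.2% in B3B lines. Impact, a regulator of translation, had one of the lowest pairs, at 17.03% in B2 lines and 11.5% in B3B lines. At Trappc9, whose intron holds the imprinted Peg13, levels were highest, with 39.6% ± 17.7 in B2 lines and 29.4% ± 21.5 in B3B lines (SD, n = 18 and 19). Regions of this category other than those at Zdbf2 and H19 were named by their known parental imprint after their values were seen.

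Within a line the imprinting regions were set against the mean over all 765 regions of the same line. In B2 lines they averaged 25.2% ± 10.6 and stood 4.54 points above the line's own mean (SD 4.48, n = 18). In B3B lines they averaged 16.2% ± 12.6 and stood 0.427 points above it (SD 4.42, n = 19). They were above their own line's mean in 16 of 18 B2 lines and in 11 of 19 B3B lines. The exceptions among B2 lines were line 32 at -6.24 points and line 2A at -4.24 points, and the lowest B3B line was 15N at -11.8 points. Without lines 8 and 44N the B3B mean was -0.0817 points (SD 4.24, n = 17). In the 9 B3B columns with a final N it was -1.20 points and in the 10 without it 1.89 points.

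**Figure D4:**
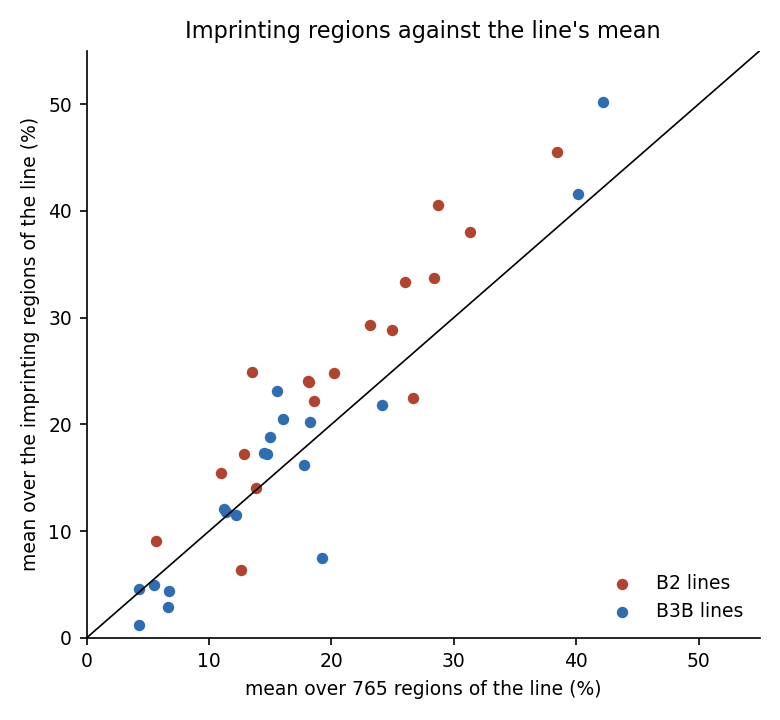
Mean over the imprinting regions of each line (vertical axis, percent) against the mean over its 765 regions (horizontal axis, percent), for B2 lines (red) and B3B lines (blue), with the diagonal of equal values. Of 18 B2 lines 16 lie above the diagonal, and of 19 B3B lines 11 do.

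Removing each line's mean asks which regions differed beyond the overall level. The answer is tied to a region's own level, since differences before centring were larger at regions of high level. On these centred fractions limma again called 0 of 765 regions, a share of 0%, with a smallest adjusted p of 0.104. At an unadjusted p under 0.05 there were 91 regions (11.9%), 64 higher in B2 (8.37%) and 27 lower (3.53%). The Wilcoxon test called 0 regions after adjustment, with 179 at an unadjusted p under 0.05 (23.4%). Centring lowers the difference of every region by about the same amount, the 4.89 points between the line means, so a region near 0% can hardly stay higher in B2 lines. Of the 212 regions with a mean under 5%, 0 were higher in B2 lines after centring, against 178 before it. Of the 294 with a mean of 5 to 25%, 116 were higher after centring and 276 before it, and of the 259 over 25%, 244 were higher after it and 257 before it, with a median of 4.35 points after it and 9.24 points before it. Of the 23 imprinting regions, 22 were higher in B2 lines after centring, with a median of 4.01 points, beside a median of -0.79 points over all regions. Of these, 8 had an unadjusted p under 0.05.

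With the line's mean log2 odds as a covariate, a fit on another scale, limma called 5 regions (0.654%). They were 1700003E16Rik and Gm12359, higher in B2 lines (0.261%), and 4933404O12Rik, Gstp2 and Arhgap22, lower in B2 lines (0.392%). The median difference in that fit was -0.00 log2 units over all regions and 0.38 over the imprinting category, where 23 of 23 differences were above 0, as were 380 of all 765. At an unadjusted p under 0.05 there were 8 of 23 imprinting regions, all higher in B2 lines, beside 12.8% of all regions. Over all regions 40 of these were higher in B2 lines (5.23%) and 58 lower (7.58%). Centring the log2 odds in place of the fractions called 8 regions (1.05%), 3 higher in B2 lines and 5 lower.

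The regions with the smallest p after centring were named after their values were seen, since none was called. At 4933404O12Rik, of the category B6J vs 129 (chromosome 5, 136919448 to 136921122), B2 lines ran from 0.739% through a median of 5.06% to 40.5%, and B3B lines from 2.52% through 7.03% to 57.8%. The lines overlapped, but 15 of 18 B2 lines and 11 of 19 B3B lines were under 10%. The centred difference was -11.1 points with a standard error of 2.63 (limma, adjusted p = 0.104), and all 7 measured CpGs had a lower mean in B2 lines. It was called lower in B2 lines with the covariate (adjusted p = 0.0116), with the log2 odds centred (adjusted p = 0.0156) and with all 4 prefixes in 1 fit of the centred fractions (adjusted p = 0.00399), where it was the single call (0.131%).

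At Lhx9 the region over the printed promoter (chromosome 1, 138842376 to 138843259) had 11.6% ± 9.05 in B2 lines and 21.97% ± 22.3 in B3B lines (SD, n = 18 and 19). B2 lines ran from 2.999% through 7.92% to 31.9%, and B3B lines from 1.09% through 13.4% to 72.7% in line 15N. The spread was wide in B3B, where 4 lines stood above the highest B2 line. The difference of -10.4 points was the lowest of all regions as deposited (limma, adjusted p = 0.281), and after centring it was -15.3 points with a standard error of 4.84 (limma, adjusted p = 0.279). A neighbouring Lhx9 region (138839579 to 138842068) averaged 17.2% in B2 lines and 22.3% in B3B lines. The 5 regions with the lowest differences as deposited all belonged to the category B6J vs 129, and Ccnb1ip1 and Cd59a completed them with -4.73 and -3.98 points. In that category 53 of 63 regions had the higher mean in B2 lines, against 92.9% of all.

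The other regions with small p after centring included Tpcn1, a cation channel gene of endolysosomes, with 7.80% in B2 lines and 11.1% in B3B lines. Lrp1, an endocytic receptor gene, averaged 7.06% in B2 lines and 8.96% in B3B lines, and Gstp2, a glutathione transferase gene, 3.88% in B2 lines and 5.41% in B3B lines. As deposited, the medians at Tpcn1, Lrp1 and Gstp2 were 6.91%, 5.31% and 3.08% in B2 lines and 6.19%, 9.87% and 2.87% in B3B lines. Without B3B lines 8 and 44N the B3B means were 8.30%, 7.61% and 3.56%. Tpcn1 had 1 measured CpG, with nearly equal means of 14.3% in B2 lines and 14.6% in B3B lines. The mean was lower in B2 lines at 4 of 5 CpGs at Lrp1 and 3 of 4 at Gstp2, and higher at the others. Centring alone takes about 4.89 points from every difference, and after it these 3 stood at -8.15, -6.79 and -6.42 points. Above 0 stood Tbc1d7, a subunit gene of the complex that restrains mTORC1, with 44.4% in B2 lines and 29.5% in B3B lines. Abhd14b averaged 33.7% in B2 lines and 20.9% in B3B lines, and Spaca1, a sperm acrosome protein gene, 32.9% in B2 lines and 21.996% in B3B lines. Their adjusted p by limma lay between 0.277 and 0.279. Tbc1d7, Abhd14b and Spaca1 are of high level, where most regions stayed higher in B2 lines after centring. With the line's mean log2 odds as a covariate their adjusted p by limma was 0.497, 0.185 and 0.357.

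**Figure D5:**
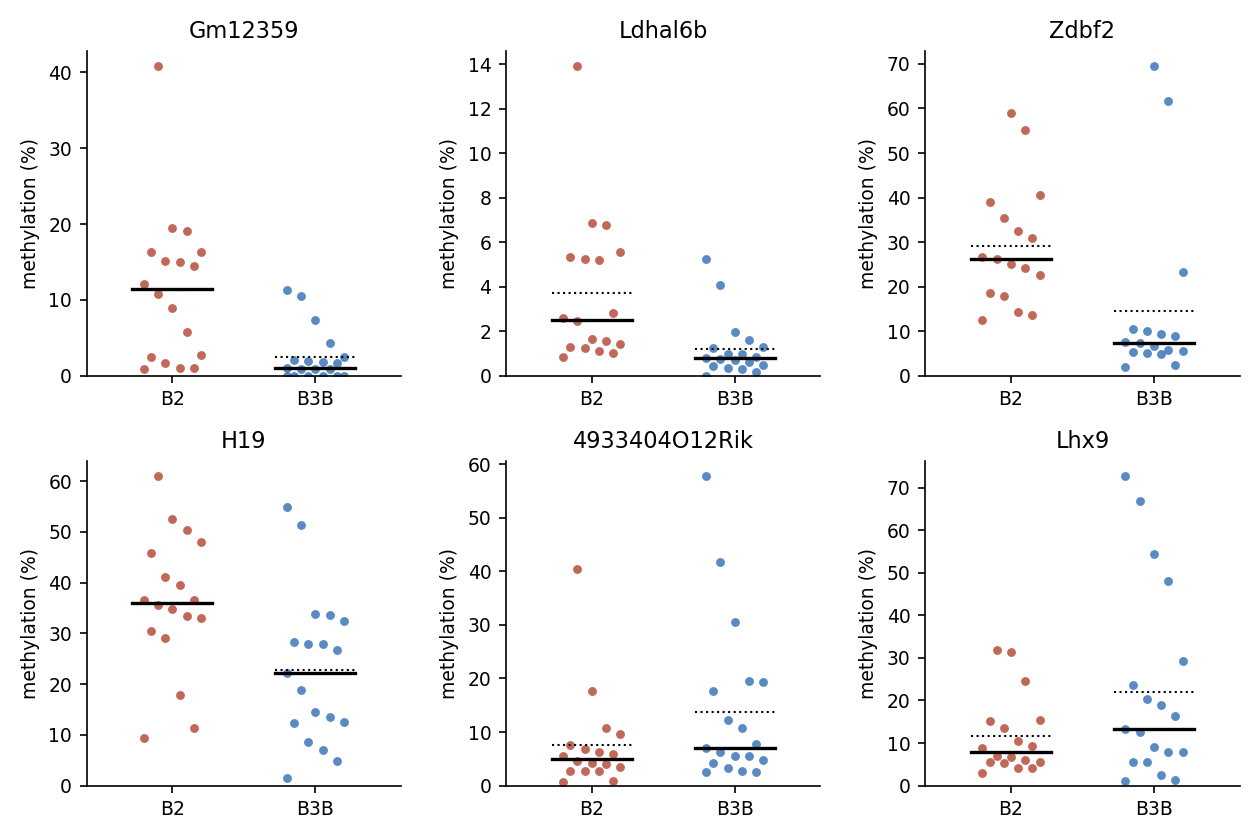
Methylation in percent (vertical axes, which differ between panels) of each B2 line (left in each panel) and each B3B line (right) at 6 named regions; solid bars are medians and dotted bars means. At Gm12359 no B3B line reaches the B2 median of 11.4%, while at Lhx9 4 B3B lines stand above every B2 line.

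Regions of the 2-cell stage category had a median difference of 7.68 points, against 4.10 over all regions. The category is of high level, with median region means of 32.9% in B2 lines and 24.1% in B3B lines. Regions with a mean over 25% had a median difference of 9.24 points. With the line's mean log2 odds as a covariate, 19 differences of the category were above 0 and 23 below. Of its regions 40 of 42 were higher in B2 lines (95.2%, against 92.9% of all). An unadjusted p under 0.05 was found at 10 of 42, or 23.8%, near the 26.3% of all regions. Of the 7 regions of listed genes of the 2-cell embryo, all had the higher mean in B2 lines, where 92.9% of all regions did, and none was called. Eif4a3l2 averaged 52.6% ± 20.5 in B2 lines and 38.04% ± 24.7 in B3B lines, and Duxf3, a copy of the Dux factor that starts the 2-cell programme, 41.6% ± 16.5 in B2 lines and 29.4% ± 20.98 in B3B lines (SD, n = 18 and 19). Usp17le, a deubiquitinase gene, averaged 32.7% in B2 lines and 20.4% in B3B lines, and Spz1, a testis factor, 49.9% in B2 lines and 39.05% in B3B lines. Copies of Dux, Usp17l and Eif4a3l genes are nearly identical, so their reads may be shared and these values are uncertain.

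Of the 30 regions of listed germline genes, 28 had the higher mean in B2 lines (93.3%), near the 92.9% of all regions. Their median difference was 3.26 points, against 4.10 over all regions. At an unadjusted p under 0.05 by limma there were 5 (16.7%, against 26.3% of all), and none was called. Ctag2l1, on chromosome X, averaged 42.1% ± 23.5 in B2 lines (SD, n = 17) and 27.9% ± 25.7 in B3B lines (SD, n = 16). Tuba3b, a testis tubulin gene, averaged 48.1% in B2 lines and 38.5% in B3B lines, and Taf7l, a germ cell transcription factor subunit, 41.8% in B2 lines and 32.9% in B3B lines. 1700013H16Rik, on chromosome X, averaged 42.4% in B2 lines and 32.9% in B3B lines. The 12 regions on chromosome X, read without knowing the sex of the lines, averaged 31.96% ± 12.8 in B2 lines and 24.7% ± 17.6 in B3B lines (SD, n = 18 and 19).

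Genes of the methylation machinery were covered by 2 regions, neither of them called. At Dnmt3l the B2 lines averaged 34.7% ± 15.9 and the B3B lines 23.6% ± 16.8, and at Tet3 the B2 lines averaged 59.5% ± 19.6 and the B3B lines 50.1% ± 20.8 (SD, n = 18 and 19 for both). Of the 9 regions of listed lineage genes, 7 had the higher mean in B2 lines (77.8%, against 92.9% of all regions) and none was called. The lowest difference of this list, -10.4 points, was at the Lhx9 promoter region described above. Pax6, a factor of eye and brain development, averaged 60.2% in B2 lines and 50.2% in B3B lines, and Nkx2-1, a factor of lung and forebrain, 22.7% in B2 lines and 15.9% in B3B lines. All 27 regions of listed imprinted genes had the higher mean in B2 lines, where 92.9% of all regions did, and none was called. Of the 4 with the largest differences, 2 lay outside the imprinting category. The Gnas region of the Cancer category averaged 35.1% in B2 lines and 22.4% in B3B lines, and that of Peg10 averaged 60.9% in B2 lines and 49.4% in B3B lines. Regions of the aging_Young category, mostly of low level, had a median difference of 0.988 points, with 114 of 126 higher in B2 lines (90.5%). Those of the Cancer category had one of 4.99 points, with 134 of 139 higher (96.4%). Over all regions these values were 4.10 points and 92.9%. The median was 4.58 points for aging_Meer, 3.62 for germline_Dahlet, 3.34 for Lineage-associated and 1.34 for aging_shared.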

How the data were processed

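EM-seq libraries of captured regions were processed by the authors with Trim Galore 0.6.4, Bismark, Bowtie2 and the build mm10, per the submitters' processing notes, which give no roles or settings. The authors deposited average methylated fractions of 868 regions and fractions of 7917 CpGs in 85 columns, with a coverage filter of 10 that the deposited tables' names state without saying what it applied to. Missing values in the table of region averages are written as text, so its deposited values are read as fractions where a number stands. There are no read counts, so depth and counting error are unknown; only the spread between lines gives precision.

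Columns were grouped by prefix, 18 B2 and 19 B3B; 14 B2 and 9 B3B columns matched 1 title, 4 and 3 name lines with 2 titles, and 9 B3B columns carry a final N. Regions with a value in 80% of each prefix's lines were kept (765; 654 with every value). The 103 left out were 44 of the 2-cell stage category, 29 of B6J vs 129, 14 of germline_Dahlet, 8 of Cancer, 5 of aging_Meer, 2 of aging_Young and 1 nPSC-associated. Regions were tested with limma 3.58.1 (R 4.3.3; lmFit, eBayes) on log2((fraction + 0.01)/(1 - fraction + 0.01)) and, centred, on fractions minus the line's mean, with Benjamini-Hochberg adjustment over all 765 and a threshold of 0.05; fits leave out a line at a region where it has no value. Permutation tests on line values were two-sided, with 100000 resamples. Python 3.11.15, NumPy 2.4.6, pandas 2.3.3, SciPy 1.17.1 and matplotlib 3.10.9 were used, and the fits were tested on simulated data. Gene names and promoter sequences came from RefSeq tables of GRCm38.p6, which lack exons; 695 kept regions overlapped a gene and 61 lay within 5 kb of one, which names them. All 1560 pairs of a measured CpG and a promoter window had CG at the deposited position.

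Named regions were the 10 with the smallest p as deposited, up to 10 called regions in each direction after centring (none were called), and up to 4 examples per gene list with the largest differences; others were named after their values were seen. Lines, lists and rules were chosen with earlier results of these data known. Alternatives were another offset, scale, region filter, test, set of lines, region value or centring, and leaving out each line; the lines left out were chosen after seeing the data.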

Additional observations from a re-analysis of the deposited data

How the results depend on the processing

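No paired analysis was possible because the number in a title names the line, and a number that occurs under both prefixes marks no shared animal or batch. As deposited, the count of 0 calls became 3 with an offset of 0.001 (Magi1, Gm12359, Ldhal6b), 2 with all 4 prefixes in 1 fit (Magi1, Gm12359), 1 with lines of 1 title and 1 with region values recomputed from CpGs (Gm12359 in both), 5 with the column mean as covariate, and 515 without B3B lines 44N and 8; leaving out each line in turn gave 0 to 175. After centring, 0 calls became 8 with the log2 odds centred, 1 with all 4 prefixes in 1 fit (4933404O12Rik) and 426 without B3B lines 44N and 8, of which 153 were higher in B2; leaving out each line gave 0 to 1. Other filters, tests and centrings left both counts at 0. The difference of line means ran from 3.90 to 5.74 points over other region sets, line sets and region values and from 3.84 to 6.35 points over leave-one-out fits, and was 7.87 points without B3B lines 44N and 8. The spread difference of -0.0535 points turned to 0.165 with the median over regions and 0.418 without columns with a final N, and to 2.26 without B3B lines 44N and 8; leaving out each line gave -0.818 to 1.08. The cause of these changes was not tested. Other offsets were not run on centred fractions, which carry none. Within each scale, the regions named for the smallest p gave 914 values with the direction and side of the threshold kept and 67 that passed it. Between scales signs did turn: of the 10 named as deposited, 5 were below 0 after centring the fractions. Depth is unknown, so noise within a line and differences between lines cannot be told apart.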
